A study of Mus musculus with 6 samples.

Results

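The genes described here are 10 members of the Notch pathway, found by their Entrez identifiers among the 26332 genes of the deposited count table: the receptors Notch1, Notch2 and Notch3, the Deltex genes Dtx1, Dtx3 and Dtx4, the nuclear factor gene Rbpj, and Hes1, Nrarp and Ptcra, which are known targets of Notch signalling. RNA-seq counted their transcripts in mouse thymic natural killer (NK) cells, in 2 libraries of Tcf7 knock-out (KO) mice and 4 libraries of wild type (WT) mice, all on the C57BL/6 background and each from an individual mouse. Tcf7 encodes TCF-1, a transcription factor that Notch signalling switches on in early thymocytes. Thymic cells were sorted by flow cytometry as positive for NK1.1 and NKp46 and negative for TCRbeta, CD3, CD8 and binding of CD1d tetramer. KO 1, WT 1 and WT 3 were labelled male, and KO 2, WT 2 and WT 4 female, so that within the KO group the sex and the library cannot be told apart. The labels do not describe the Tcf7 allele, whether the deletion was limited to some cells, or the age of the mice.

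Notch receptors are transmembrane proteins that are cut when a ligand of the Delta or Jagged family on a neighbouring cell binds them. The freed intracellular part enters the nucleus, joins the DNA-binding protein Rbpj and its coactivators, and turns on targets such as Hes1, Nrarp, Dtx1 and, in developing T cells, Ptcra. In the thymus this signal commits progenitors to the T cell fate and drives the double-negative stages, at which the pre-T cell receptor that contains the Ptcra product is assembled.

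The libraries held 16418910 to 31155303 counts, and a floor of 3 counts corresponded to 0.0963 to 0.183 CPM, the unit of counts relative to the library total. Values are CPM scaled by the TMM method unless stated otherwise. The targeted gene was read first: Tcf7 had 268 and 452 CPM in KO 1 and KO 2, against 943, 947, 811 and 880 CPM in WT 1 to WT 4 (log2 fold change -1.35, SE 0.17, adjusted p = 2.94e-03). It was lower in both KO libraries, although the counts of a whole gene do not show which exons they came from. The NK markers Ncr1 and Klrb1c were high in all 6 libraries, with 740 to 1037 CPM and 1084 to 1705 CPM. Of the 10 NK markers listed, 8 were not called between the genotypes and 2 were called lower in KO. Of all genes tested, 13.7% were called in either direction. Eomes had 295 and 140 CPM in KO 1 and KO 2, against 800 to 930 CPM in WT (log2 fold change -2.11, adjusted p = 1.59e-03). Klrb1c had 1270 and 1084 CPM in KO, against 1555 to 1705 CPM in WT (-0.48, adjusted p = 0.0149).

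Promoter sequences are shown for 3 of the members that rose in KO and were far higher in KO 2 than in KO 1, with the core of the Rbpj motif, TGGGAA, in capitals on either strand (TTCCCA where it lies on the opposite strand). Each line gives the 250 bases before a RefSeq transcription start in GRCm38.p6, the build of the counts (mm10), read 5′ to 3′ along the gene's strand.
Ptcra, chr17:46763713-46763962, minus strand: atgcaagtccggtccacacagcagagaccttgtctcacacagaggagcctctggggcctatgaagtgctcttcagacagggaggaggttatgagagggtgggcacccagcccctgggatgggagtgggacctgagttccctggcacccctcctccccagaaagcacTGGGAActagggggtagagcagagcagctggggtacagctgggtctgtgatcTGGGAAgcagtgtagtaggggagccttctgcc
Rbpj, chr5:53590096-53590345, plus strand: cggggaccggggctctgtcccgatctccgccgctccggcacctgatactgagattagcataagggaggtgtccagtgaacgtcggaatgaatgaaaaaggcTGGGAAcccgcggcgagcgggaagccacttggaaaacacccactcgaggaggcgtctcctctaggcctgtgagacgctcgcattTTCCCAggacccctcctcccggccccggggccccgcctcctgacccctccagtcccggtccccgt
Notch3, chr17:32166891-32167140, minus strand: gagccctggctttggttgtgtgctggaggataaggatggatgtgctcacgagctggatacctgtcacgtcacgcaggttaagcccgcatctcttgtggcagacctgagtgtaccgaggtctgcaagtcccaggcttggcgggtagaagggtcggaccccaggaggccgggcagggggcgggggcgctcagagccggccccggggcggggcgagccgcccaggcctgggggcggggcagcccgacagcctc
The Ptcra window holds the core at 84 and 32 bases before the start, both on the gene's strand. The Rbpj window holds it at 149 bases on the gene's strand and at 65 bases on the opposite strand, and the Notch3 window has none. Of the 10 members, 7 matched the promoter table with 8 windows (Rbpj had a second one), and 2 of the 7 (Ptcra and Rbpj) held TGGGAA, which was found in 21.6% of all 32851 windows of this length. The longer Rbpj motif GTGGGAA, which contains the core (5.42% of all windows), and the TCF motifs CTTTGAT (3.21%) and CTTTGTT (5.03%) were found in none of the 7. Hes1, Dtx3 and Dtx4 had no entry.

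Of the 10 members, all of which passed the filter on low counts, 5 were higher in KO, none was lower and 5 were not called at an adjusted p under 0.05. Over all 13652 genes tested, 13.7% were called, 8.13% higher and 5.58% lower. Dtx1 was about equally high in both KO libraries, while Notch3, Dtx4, Ptcra and Rbpj were much higher in KO 2 than in KO 1. The Notch1 and Notch2 receptors and the feedback gene Nrarp did not pass the test, and neither did Hes1. The 5 members called had both KO libraries above every WT library, which held for 20.5% of all genes tested. Nrarp had both below every WT library, which held for 18.8%. Groups thus did not overlap for 6 of 10 members and for 39.3% of all genes tested. Bulk counts cannot tell more or less RNA per cell from more or fewer cells of a type, at these genes or any other.

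**Figure D1:**
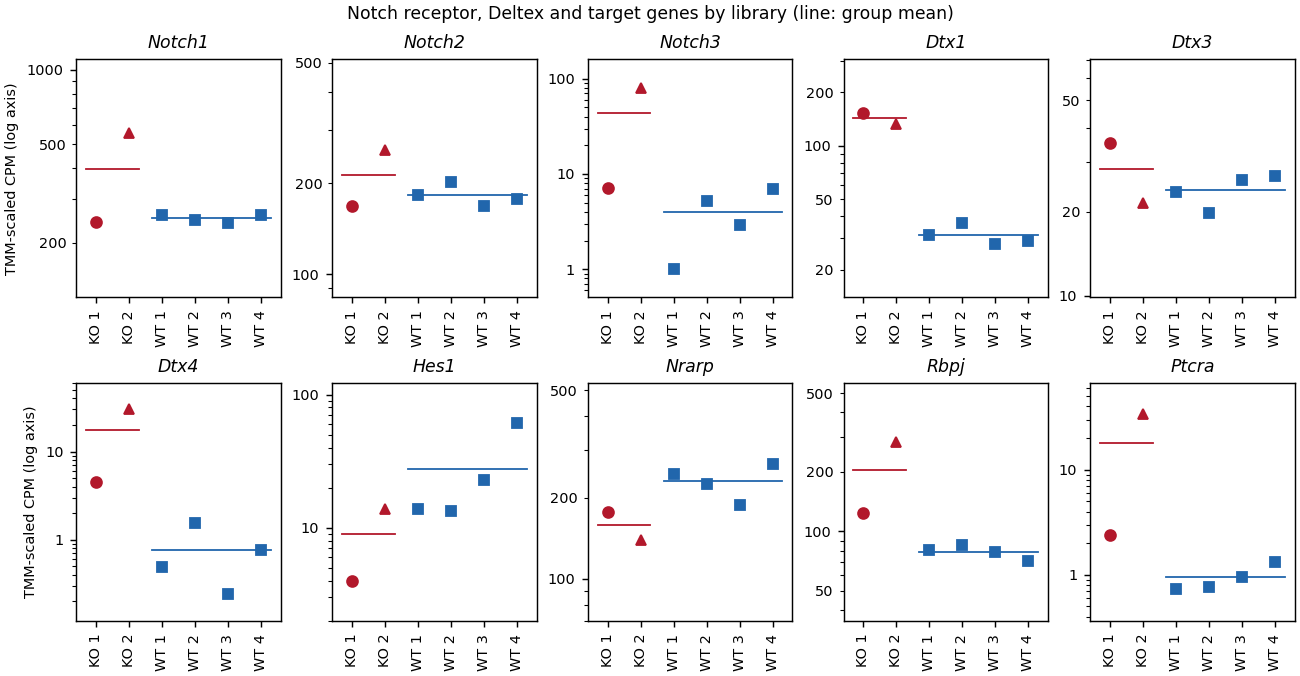
TMM-scaled CPM of each of the 10 genes (log axis, own scale in each panel) in KO 1 (circle), KO 2 (triangle) and WT 1 to WT 4 (squares); lines are group means. Dtx1 is near its mean of 143 CPM in both KO libraries, whereas Notch3, Dtx4, Rbpj and Ptcra are highest in KO 2 and Hes1 is highest in WT 4.

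Notch1 (chromosome 2, 26457902 to 26503822), the receptor that T cell commitment depends on, had 243 CPM in KO 1 and 553 CPM in KO 2, against 259, 246, 240 and 258 CPM in WT 1 to WT 4. KO 1 lay within the narrow WT range and KO 2 above it. The difference on the log2 scale, 0.59 (SE 0.23, adjusted p = 0.138), did not pass, and it was 1.13 without KO 1 (adjusted p = 3.70e-03) and -0.04 without KO 2 (adjusted p = 0.866). DESeq2 called Notch1 (adjusted p = 0.0472), as did the fit with no expression filter (0.0402). The gene 0610009E02Rik, also in the count table, overlaps Notch1, and without strand, reads in the overlap cannot be told apart.

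Notch2 (chromosome 3, 98013538 to 98150367), a receptor known in mature lymphocytes and marginal zone B cells, had 168 CPM in KO 1 and 257 CPM in KO 2, against 183, 202, 168 and 177 CPM in the WT libraries. Only KO 2 stood clear of the WT values, and the difference was not called (log2 fold change 0.19, SE 0.14, adjusted p = 0.390).

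Notch3 (chromosome 17, 32120820 to 32166896), a receptor that is itself a Notch target in thymocytes, had 7.13 CPM in KO 1 and 80.4 CPM in KO 2, against 1.01, 5.21, 2.88 and 6.94 CPM in WT 1 to WT 4. KO 1 was just above the highest WT library, WT 4, and KO 2 was 11.3 times KO 1. Notch3 rose by 3.00 on the log2 scale (SE 0.47, adjusted p = 6.89e-03), and without KO 2 it was 1.89 and not called (adjusted p = 0.112).

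The Deltex genes encode E3 ubiquitin ligases, and the product of Dtx1 binds the intracellular part of Notch. Dtx1 (chromosome 5, 120680203 to 120711867), a long-known Notch target and regulator, had 154 and 133 CPM in KO 1 and KO 2, against 31.6, 36.8, 27.9 and 28.9 CPM in WT 1 to WT 4. The groups were far apart and the KO libraries differed little from each other. The means were 143 ± 14.8 CPM (SD, n = 2) in KO and 31.3 ± 3.97 CPM (SD, n = 4) in WT, a 4.57-fold rise (log2 fold change 2.19, SE 0.14, adjusted p = 2.34e-04). It was the member with the smallest adjusted p, and its log2 fold change stayed between 2.00 and 2.36 when any 1 library was left out, with every one of these fits calling it. Without KO 2, Dtx1 was the only member of the 10 that was called (log2 fold change 2.36, adjusted p = 2.53e-03).

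Dtx4 (chromosome 19, 12466329 to 12502179), a related ligase, had 4.46 CPM in KO 1 and 30.2 CPM in KO 2, against 0.486, 1.55, 0.240 and 0.767 CPM in WT 1 to WT 4. These WT values rest on 12, 47, 4 and 19 counts, and the KO values on 77 and 812 counts. Both KO libraries stood above the WT libraries (log2 fold change 4.23, SE 0.42, adjusted p = 1.24e-03). Without KO 2 the log2 fold change was 3.56 and just missed the threshold (adjusted p = 0.0570).

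Dtx3 (chromosome 10, 127190373 to 127196498), the third family member listed, had 35.2 CPM in KO 1 and 21.5 CPM in KO 2, against 23.4, 19.7, 25.9 and 26.9 CPM in the WT libraries. It was the Deltex gene whose groups overlapped, with KO 1 above the WT range and KO 2 inside it (log2 fold change 0.21, SE 0.20, adjusted p = 0.529, and -0.12 without KO 1). F420014N23Rik overlaps it and had 25 to 70 counts per library; without strand, reads in the overlap cannot be told apart.

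Rbpj (chromosome 5, 53555779 to 53657445), the DNA-binding partner of cleaved Notch, had 124 CPM in KO 1 and 283 CPM in KO 2, against 80.6, 85.3, 78.9 and 70.5 CPM in the WT libraries. Both KO libraries were above a WT range that varied little. The rise was 2.46-fold (log2 fold change 1.30, SE 0.24, adjusted p = 0.0146), and 0.64 on the log2 scale without KO 2 (adjusted p = 0.0730). The annotation lists processed copies named after Rbpj, so the assignment of a share of its reads is uncertain.

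Ptcra (chromosome 17, 46755663 to 46763712), the gene of the pre-T cell receptor alpha chain whose promoter is given above, had 2.38 CPM in KO 1 and 33.6 CPM in KO 2, against 0.729, 0.758, 0.960 and 1.33 CPM in WT 1 to WT 4. KO 2 held 906 counts and KO 1 held 41, against 16 to 33 in the WT libraries. The rise (log2 fold change 3.67, SE 0.74, adjusted p = 0.0188) was 5.01 without KO 1 (adjusted p = 1.23e-03) and 1.49 without KO 2, when it was not called (adjusted p = 0.309).

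Hes1 (chromosome 16, 30065357 to 30067796), a repressor gene and a classical Notch target, had 4.00 CPM in KO 1 and 13.9 CPM in KO 2, against 13.7, 13.3, 22.9 and 61.4 CPM in WT 1 to WT 4. KO 1 was below all WT libraries and KO 2 among the lower ones, and WT 4 had 4.61 times the level of WT 2. The difference on the log2 scale was -1.76 (SE 0.60) and was not called (adjusted p = 0.0959). It was called without WT 2 (-2.17, adjusted p = 5.26e-03) and with no expression filter (adjusted p = 0.0117), while limma voom gave -1.26 (adjusted p = 0.348).

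Nrarp (chromosome 2, 25180758 to 25183339), which encodes an ankyrin repeat protein that Notch induces and that limits Notch signalling, had 177 and 140 CPM in KO 1 and KO 2, against 244, 225, 188 and 267 CPM in WT 1 to WT 4. Both KO libraries were below every WT library, but by a margin smaller than the spread among WT libraries (log2 fold change -0.54, SE 0.17, adjusted p = 0.0750). DESeq2 (adjusted p = 0.0134) and limma voom (0.0446) called it lower. With counts scaled by library size only, it was -0.46 (adjusted p = 0.112). Of the targets, Dtx1, Ptcra and Notch3 were called higher, while Nrarp and Hes1 had negative log2 fold changes that did not pass the test. Whether the targets differed from each other was not tested.

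**Figure D2:**
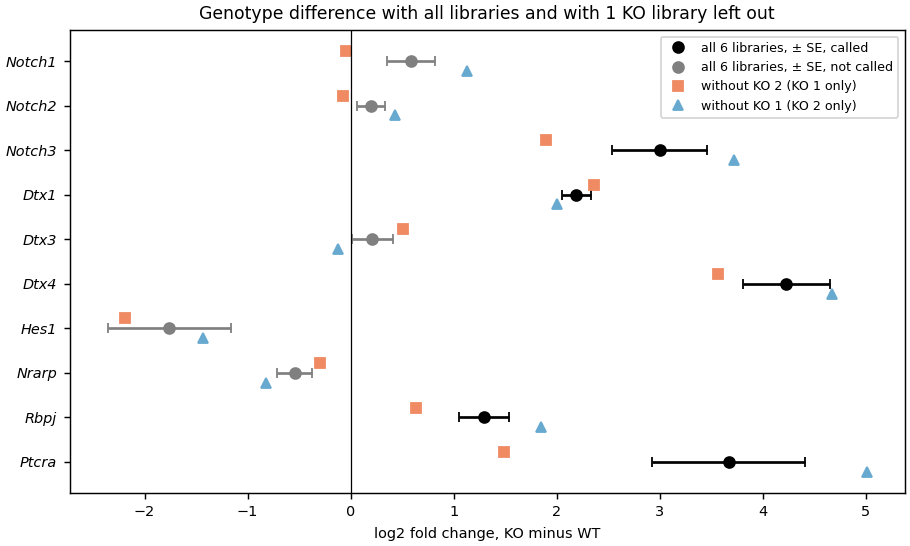
Log2 fold change (KO minus WT) of the 10 genes from all 6 libraries (circles with SE, black where called), without KO 2 (squares) and without KO 1 (triangles). The settings lie close together for Dtx1 (2.36 and 2.00) and far apart for Ptcra (1.49 and 5.01), and Notch1 is at -0.04 without KO 2.

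In KO 1, 6 of the 10 members were above the WT range, 3 below it and 1 within it. In KO 2, 7 were above, 1 below and 2 within. The share of all genes tested that lay outside the WT range was not counted for each KO library. These counts therefore do not set the members apart from other genes. KO 2 exceeded KO 1 by 14.2 times at Ptcra, 11.3 times at Notch3, 6.76 times at Dtx4, 3.46 times at Hes1, and 2.27 times at both Notch1 and Rbpj. For Dtx1, Nrarp and Dtx3 the order was the opposite, with KO 2 at 0.863, 0.790 and 0.612 times the level of KO 1. No member was called between female and male libraries in the same fit (adjusted p 0.759 to 0.990; 3 of 10 at an unadjusted p under 0.05), nor was any gene of the 13652 tested (866 at an unadjusted p under 0.05; 28 were called by DESeq2). The interaction of genotype and sex, which in this design is the contrast of KO 2 with KO 1 against that between the WT sexes, was called for no gene by edgeR (lowest adjusted p among members 0.344). Unadjusted, 5 of 10 members and 1368 of 13652 genes had a p under 0.05. Sex was taken from the labels and was not checked against genes of the sex chromosomes.

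Early thymocytes use several of these genes, and their markers were highest in KO 2. Leaving out Ptcra, the 7 markers of early thymocytes listed (Rag1, Rag2, Dntt, Kit, Arpp21, Cd8b1 and Themis) summed to 225 CPM in KO 1 and 928 CPM in KO 2, against 281 to 328 CPM in WT. Kit, which had 165 CPM in KO 1 and 383 CPM in KO 2, against 177 to 289 CPM in WT, made up most of this sum except in KO 2. Without Kit the other 6 markers summed to 60.3 CPM in KO 1 and 545 CPM in KO 2, against 14.5, 27.3, 35.0 and 151 CPM in WT 1 to WT 4, so that KO 1 was above WT 1 to WT 3 and below WT 4. All 7 had their highest level in KO 2, and for none were both KO libraries above every WT library. Rag1, a recombinase gene of developing lymphocytes, had 20.2 CPM in KO 1 and 322 CPM in KO 2, against 4.25, 11.2, 10.4 and 62.4 CPM in WT 1 to WT 4. KO 1 had less Rag1 than WT 4, and KO 1 also had less of Dntt, the gene of a polymerase that diversifies receptor joints (10.7 CPM in KO 1 against 45.5 CPM in WT 4). The other markers listed (Rag2, Kit, Arpp21, Cd8b1 and Themis) were lower in KO 1 than in WT 4 as well. Ptcra (2.38 against 1.33 CPM) and Dtx4 (4.46 against 0.767 CPM) had higher levels in KO 1 than in WT 4. Notch3 was nearly equal in KO 1 and WT 4 (7.13 against 6.94 CPM). Among these 7 markers, Arpp21 and Themis were called higher in KO, and none was at 0 in any library. The part of these cells in the values of Notch3, Dtx4, Rbpj, Notch1 and Ptcra was not tested.

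Markers of further cell types also differed between the groups, and their part in the members' values was not tested. The 11 alpha-beta T cell and thymocyte markers summed to 1698 CPM in KO 1 and 2127 CPM in KO 2, against 469 to 736 CPM in WT. The highest of them in KO were Trbc2, with 473 and 941 CPM in KO 1 and KO 2, and Trac, with 405 and 636 CPM. Of the 11, 4 were called higher in KO and 1 lower. The lower one, Cd28, had 111.6 and 45.9 CPM in KO, against 147.5 to 241.6 CPM in WT (log2 fold change -1.42, adjusted p = 0.0406). Cd3d and Trbc1 were among those not called. Of the 11 markers, 7 were above every WT library in both KO libraries. The 7 gamma-delta T cell markers summed to 721 and 557 CPM in KO 1 and KO 2, against 219 to 380 CPM in WT, with 6 of 7 above. The 10 markers of ILC2 and ILC3, innate lymphocytes of other lineages, summed to 196 and 283 CPM in KO, against 117 to 135 CPM in WT, with 5 of 10 above. Without Gata3, the most expressed of them in WT, the sums were 98.8 and 167 CPM in KO, against 2.23 to 11.5 CPM in WT; Il22 and Il17a had no count in any library. The 9 B cell markers summed to 527 and 410 CPM in KO, against 365 to 420 CPM in WT, with 6 of 9 above. Ighm made up most of these sums, and without it they were 170 and 45.8 CPM in KO, against 4.21 to 13.4 CPM in WT. The number of B cell markers at 0 was 5 in WT 1, 3 each in WT 2 and WT 3, and 0 in WT 4 and both KO libraries. The 10 myeloid markers summed to 1242 and 966 CPM in KO, against 1156 to 1277 CPM in WT. Without Itgax and Itgam, integrin genes that NK cells also express, the other 8 summed to 65.8 and 162 CPM in KO, against 0.567, 3.43, 15.0 and 95.5 CPM in WT 1 to WT 4. The 10 stromal and epithelial markers summed to 272 and 449 CPM in KO, against 110 to 119 CPM in WT, most of it from Pecam1, with 245 and 402 CPM in KO, against 103 to 113 CPM in WT. Without Pecam1 and Epcam the other 8 summed to 5.16 and 11.7 CPM in KO, against 0 to 2.10 CPM in WT. In both of these lists 4 of 10 were above. Of the stromal and epithelial markers 6 were tested, and 4 (Pecam1, Epcam, Krt5 and Krt8) were called higher in KO and 0 lower. Krt5 had only 0.985 and 0.966 CPM in KO 1 and KO 2. Of the myeloid markers 9 were tested, and 0 were called higher and 0 lower. Over all genes tested, 8.13% were called higher. Foxn1, the defining factor gene of thymic epithelium, had 0.522 CPM in KO 1 and was at 0 in KO 2 and all WT libraries.

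**Figure D3:**
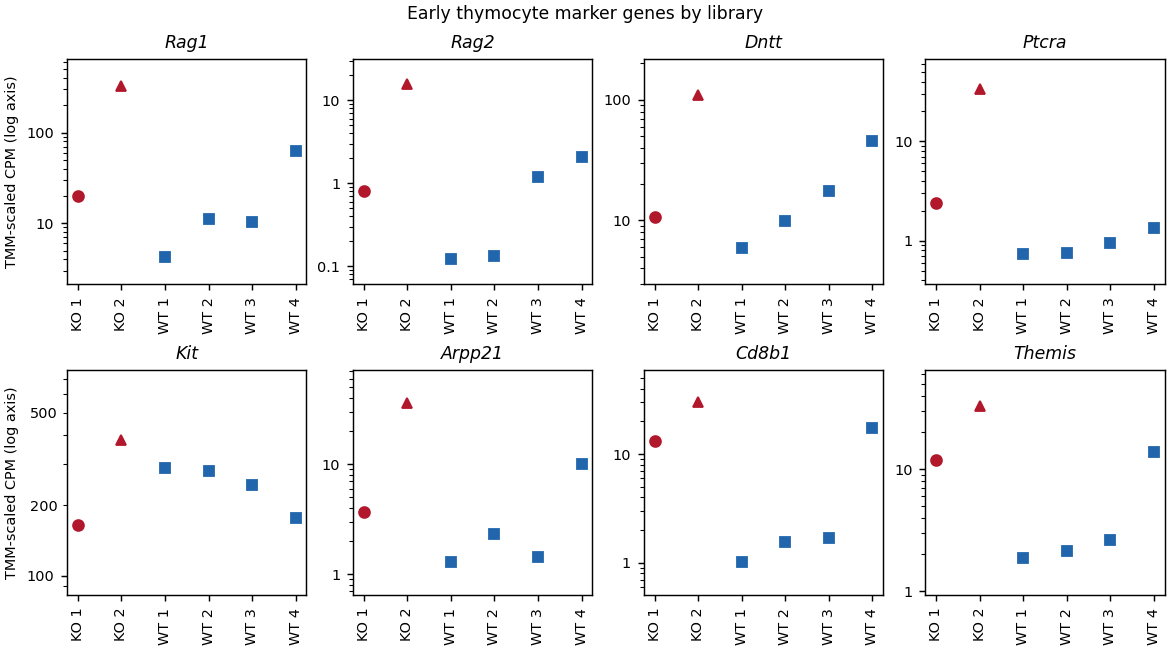
TMM-scaled CPM of the 8 early thymocyte markers, Ptcra included (log axis, own scale in each panel), in KO 1 (circle), KO 2 (triangle) and WT 1 to WT 4 (squares). KO 2 is highest in every panel, and KO 1 has less Rag1 (20.2 CPM) than WT 4 (62.4 CPM).

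Levels of different genes were compared as TMM-scaled CPM per kilobase of gene length. In KO the order of the means was Nrarp, with 61.3 ± 10.2 CPM per kb (SD, n = 2), Notch1 with 42.0 ± 23.1, Dtx1 with 38.5 ± 3.99 and Rbpj with 35.7 ± 19.6 CPM per kb. Notch2 followed with 20.2 ± 6.01 and Dtx3 with 14.6 ± 4.96 CPM per kb, and Ptcra, Hes1, Notch3 and Dtx4 had 14.0 ± 17.2, 6.15 ± 4.80, 5.51 ± 6.52 and 3.00 ± 3.15 CPM per kb. In KO the range of each gene overlapped with that of the next in this order. Within each KO library, however, Rbpj was above Notch2 and Notch3 was above Dtx4. In WT, Nrarp was first with 89.4 ± 12.9 CPM per kb (SD, n = 4), above all others in every library, and Notch1 second with 26.4 ± 0.965 CPM per kb. Hes1 (19.2 ± 15.7) overlapped with Notch1 above it and with Notch2 (17.4 ± 1.36) below it, as did Rbpj (13.8 ± 1.08) with Dtx3 (12.3 ± 1.64 CPM per kb). Dtx1 was seventh in WT with 8.43 ± 1.07 CPM per kb, below every value of Dtx3. Ptcra (0.736 ± 0.217), Notch3 (0.505 ± 0.328) and Dtx4 (0.132 ± 0.0985 CPM per kb) came last, the range of each overlapping with that of the next. Within each WT library Notch3 was above Dtx4.

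**Figure D4:**
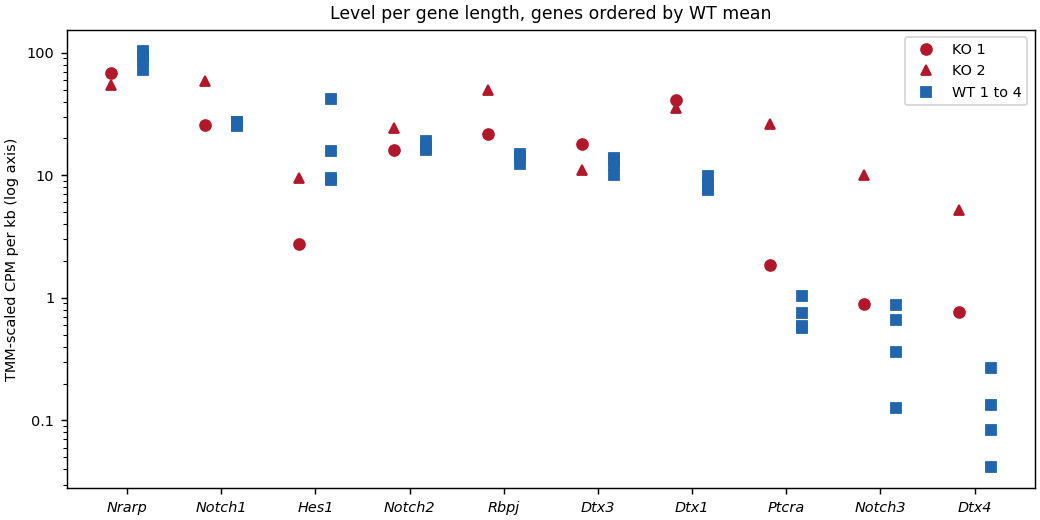
TMM-scaled CPM per kb of gene length (log axis) of the 10 genes, ordered by the WT mean, with KO 1 (circles) and KO 2 (triangles) left of WT 1 to WT 4 (squares). Nrarp is highest in WT (89.4 CPM per kb on average), and Dtx1 is at 41.4 and 35.7 CPM per kb in KO, against 7.52 to 9.91 CPM per kb in WT.

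The profile of Dtx1 over the 6 libraries was most like those of Abcb9, Synpo, Intu and Nccrp1 and 1 gene without a symbol, the 5 genes with the smallest root mean square difference of gene-centred log2(CPM + 1). The difference was 0.12 for Abcb9, which encodes a lysosomal peptide transporter, with 108 and 89.8 CPM in KO 1 and KO 2, against 16.9 to 25.5 CPM in WT. It was 0.16 for Synpo, the gene of the actin-associated protein synaptopodin, with 19.0 and 16.6 CPM in KO, against 3.36 to 3.84 CPM in WT. Intu, a planar cell polarity gene, had 11.3 and 11.8 CPM in KO, against 1.32 to 2.55 CPM in WT, and Nccrp1 had 3.77 and 4.23 CPM in KO, against 0.0600 to 0.202 CPM in WT. The log2 fold change was 2.17 for Abcb9, 2.30 for Synpo and 2.51 for Intu, against 2.19 for Dtx1. It was 5.16 for Nccrp1 and 9.44 for the gene without a symbol, which was at 0 in WT. At such low levels the added 1 CPM shrinks differences, so the likeness of Nccrp1 and the gene without a symbol is less certain. All 5 genes were picked for their likeness, so their own differences carry no further weight.

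Beyond the 10 members, 78 other Notch pathway genes were in the table and 71 were tested. Of these, 10 rose, 4 fell (the targeted gene Tcf7 among them) and 57 were not called. Thus 19.7% of the 71 were called, against 13.7% of all genes tested. Their median log2 fold change was -0.0039, against 0.02 over all genes tested and 0.94 over the 10 members.

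Of 7 further receptor and ligand genes tested, 2 rose and none fell. Jag1, the gene of the Notch ligand Jagged1, had 33.5 and 102 CPM in KO 1 and KO 2, against 9.80, 9.76, 6.78 and 14.3 CPM in WT 1 to WT 4 (log2 fold change 2.59, SE 0.28, adjusted p = 1.59e-03). Dll1, a Delta-like ligand gene, had 17.9 and 56.8 CPM in KO, against 4.82 to 8.60 CPM in WT (2.30, adjusted p = 8.32e-03), and without KO 2 it was 1.44 and not called (adjusted p = 0.0845). For both ligands all KO values were above the WT values, and KO 2 was the higher one, as for Notch3.

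Of 6 genes for receptor glycosylation and maturation, Furin was the only one called. It encodes the convertase that cuts the receptor precursor and had 189 and 370 CPM in KO, against 137 to 162 CPM in WT (log2 fold change 0.89, adjusted p = 0.0217). The call was lost without KO 2 (0.43, adjusted p = 0.157), WT 2 or WT 3 (adjusted p 0.0532 and 0.0544). None of the 8 genes of receptor cleavage was called. Adam10, the sheddase gene and the most expressed of them per length, had 212 and 229 CPM in KO, against 219 to 274 CPM in WT (-0.18, adjusted p = 0.352).

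Of 11 genes of endocytosis and turnover, 2 rose. Nedd4, a ubiquitin ligase gene, had 402 and 421 CPM in KO, against 253 to 262 CPM in WT (log2 fold change 0.67, SE 0.08, adjusted p = 2.83e-03). Numbl, a relative of the Notch inhibitor Numb, had 21.2 and 25.1 CPM in KO, against 13.0 to 16.3 CPM in WT (0.65, adjusted p = 0.0437). It lost its call without any 1 library other than WT 4 (adjusted p up to 0.213). Nedd4 kept it without any library, with KO libraries that were nearly equal, as for Dtx1.

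Of 20 nuclear cofactors of Rbpj, 18 were not called, and Kat2b was the only one that rose. Kat2b, an acetyltransferase gene, had 52.9 and 51.6 CPM in KO, against 30.0 to 41.1 CPM in WT (log2 fold change 0.53, adjusted p = 0.0319). It was not called without any 1 library other than WT 4 (adjusted p 0.0571 to 0.208).

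Of the other Hes and Hey genes, 3 of 8 passed the filter on low counts. Heyl, a repressor gene of the Hey family and a Notch target, had 11.0 and 20.5 CPM in KO, against 1.25, 1.94, 1.62 and 1.82 CPM in WT 1 to WT 4 (log2 fold change 3.20, SE 0.26, adjusted p = 5.91e-04). It was called in every setting tried, at 2.93 without KO 2 and 3.43 without KO 1. Hes6, known in mouse to counter Hes1, had 37.3 and 31.6 CPM in KO, against 42.7 to 57.0 CPM in WT (-0.56, adjusted p = 0.0498), and 12 of 18 settings lost the call, among them each library left out except WT 2 (adjusted p up to 0.214).

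Of 16 other targets and partners of Notch in early T cells, Tcf7 included, 3 rose and 2 fell. The 2 that fell were Tcf7 itself and Hhex, a homeobox gene that was picked after its values were seen (-0.47, adjusted p = 0.0300). Il2ra, the interleukin-2 receptor alpha chain gene and a marker of double-negative thymocytes and activated lymphocytes, had 82.2 and 297 CPM in KO, against 19.0 to 27.7 CPM in WT (log2 fold change 2.82, SE 0.32, adjusted p = 1.96e-03). It was 1.93 without KO 2 and 3.53 without KO 1. Bcl11b, the T cell commitment factor gene, had 63.6 and 113 CPM in KO, against 21.2 to 40.1 CPM in WT (1.59, adjusted p = 1.14e-03). Igf1r, a growth factor receptor gene, had 24.6 and 63.0 CPM in KO, against 12.8 to 18.0 CPM in WT (1.38, adjusted p = 0.0148), and was not called without KO 2 (0.74, adjusted p = 0.118).

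**Figure D5:**
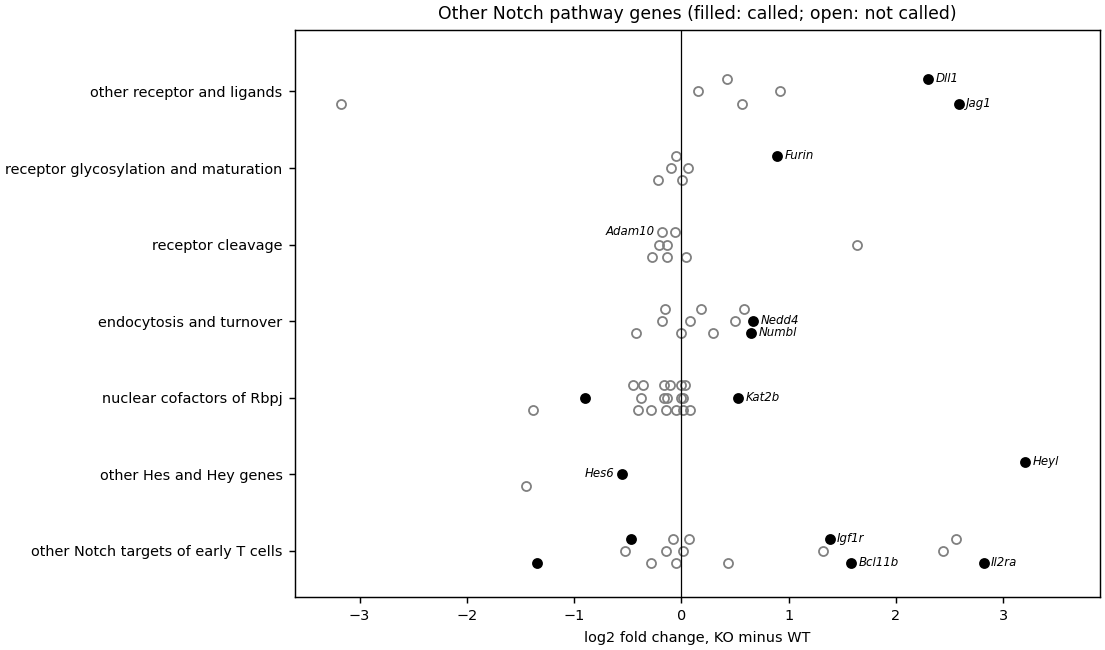
Log2 fold change (KO minus WT) of the 71 tested genes of the wider Notch pathway, 1 point per gene, in 7 groups by role; filled points were called and the named genes are those with values in the text; Tcf7 and Hhex are the unnamed filled points in the lowest group. The points of receptor cleavage and of the nuclear cofactors lie mostly near 0, and Heyl (3.20), Il2ra (2.82), Jag1 (2.59) and Dll1 (2.30) are the named genes farthest to the right.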

How the data were processed

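RNA of 6 sorted thymic NK cell samples (2 KO, 4 WT) was amplified as full-length cDNA with the SMART-Seq v4 kit, which does not mark strand, and sequenced from both ends, per the labels' protocols. The authors deposited whole-number counts for each Entrez gene, not normalized; the submitters' processing notes name featureCounts and mm10, while the aligner and tool versions are not stated in any source at hand. The single-sample files held the same counts, and 0 columns belonged to other samples. The gene lengths deposited by the authors (another value than a count) gave CPM per kb. Without molecular identifiers, floors cover counting error only.

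Symbols came from the RefSeq table of GRCm38.p6 (25275 of 26332 IDs; the others, 0.623% of counts, stayed in). Counts were tested with edgeR 4.0.16 (R 4.3.3): TMM, filterByExpr, glmQLFit and glmQLFTest with sex as an additive term and Benjamini-Hochberg adjustment over 13652 genes. A gene was called where this adjusted p was under 0.05, and every adjusted p without another tool's name is from this fit. A positive log2 fold change means higher in KO. The fit had 3 residual degrees of freedom. No pair of replicates agreed within sampling noise (lowest chi-square 8.86 per degree of freedom), so none were merged. The fit was tested on simulated counts with known changes: it missed some of them, and the share of false calls was above the nominal threshold, so calls near the threshold are less certain. Sums of markers without the most expressed ones were added after seeing the data.

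The members, the lists and the tests were chosen with earlier results of these data known. Named beside the members were Tcf7, up to 3 called genes with the largest change per pathway group or, with none called, the most expressed one per length, and for likeness the 5 genes nearest to the member with the smallest adjusted p; 1 gene that this rule names is not reported here. The alternatives changed the scaling (RLE, upper quartile, library size), the expression filter (none, or 5 CPM in at least 2 libraries), the design (without sex, or with a replicate block) and the tool (DESeq2 1.42.0, limma 3.58.1 voom, voom with weights per sample, or a robust form of the main test), or left out each library (with 1 KO library left, it is assumed to vary like the WT libraries). Leaving out WT 3 and WT 4 together was added after seeing the data.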

Additional observations from a re-analysis of the deposited data

How the results depend on the processing

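The count of members called was 5; it was 8 with no expression filter, 3 with at least 5 CPM in 2 libraries (Dtx4 and Ptcra were not tested there) and 1 to 6 with 1 library left out, lowest without KO 2. For the other Notch pathway genes the count was 14, 22 by DESeq2 and 8 to 16 with 1 library left out (8 without KO 2, 9 without WT 3). For all genes it was 1872, 2955 by DESeq2 and 934 to 1908 with 1 library left out (934 without KO 2, 1002 without WT 1, 1015 without KO 1, 1022 without WT 3). Between the sexes it was 0, with 15 when no filter was used, 28 by DESeq2 and 0 to 4 with 1 library left out. With library-size scaling, 1336 genes were higher and 523 lower, against 1110 and 762; no scaling turned the direction of a member. With 1 library left out, the log2 fold change ranged from -0.0437 to 1.13 for Notch1 and from -0.0723 to 0.43 for Notch2 (both lowest without KO 2), and from -0.12 (without KO 1) to 0.51 for Dtx3, the members that changed sign. Equal replicate numbers also share the sex, but correlated by 0.128 (KO 1 and WT 1) and 0.00049 (KO 2 and WT 2) in their deviations from the group means, so the numbers were not taken as pairs. A replicate block called 6 members, 12 other pathway genes and 1341 genes in all, adding Nrarp (adjusted p = 0.0303) to the members and losing Hes6, Numbl and Kat2b. In that block WT 3 and WT 4 have no KO library of the same number. Its genotype difference therefore rested on KO 1, KO 2, WT 1 and WT 2. Dtx1 was the member whose call held in all 18 settings, although the KO group has only 2 libraries. Where tested, Notch3, Dtx4, Rbpj and Ptcra lost their calls only without KO 2, a fit that keeps 1 KO library. The causes of these changes were not tested. Depth limits the WT levels of Dtx4 and Ptcra, which rest on 4 to 47 and 16 to 33 counts.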
